A study of Macaca fascicularis with 21 samples.

Results

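The 5 chemokine and chemokine receptor genes described here are the ligands CXCL12, CCL20 and CCL2 and the receptors CXCR4 and CCR7, out of 30792 genes counted in single embryo cells of the cynomolgus monkey, Macaca fascicularis. All 5 were found by name. They were chosen from measured values, with their levels by cell type and day in these same cells known. Their levels between families and days are therefore given as a description, with standard errors and no test. Tests are given for other genes of the same pathways, and for the 5 genes only in a split of the embryos that did not choose them.

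Chemokines are small secreted proteins that steer migrating cells by binding receptors of the G protein-coupled class on their surface. CXCL12 signals through CXCR4 and is also taken up by the scavenging receptor ACKR3, CCL20 binds CCR6, CCL2 binds CCR2, and CCR7 is the receptor of CCL19 and CCL21. In mouse embryos CXCL12 and CXCR4 guide primordial germ cells toward the gonads, whereas CCL2, CCL20 and CCR7 are known mostly for moving immune cells.

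The study followed cynomolgus blastocysts that were freed of the zona pellucida and grown 1 per well on a basement membrane gel (Matrigel), in medium with serum. There were 21 embryos, each counted as 1 replicate, at labelled days 11, 12, 13, 14, 16 and 17 with 2, 5, 3, 4, 4 and 3 embryos. All were grown in vitro, the labels name no treatment or genotype, and no embryo from a uterus serves as a control. The labels call the day a culture stage in 5 embryos, which are replicates 1 and 2 of days 13 and 17 and replicate 1 of day 12, and a developmental stage in the other 16. A shared starting point of these 2 scales is nowhere stated. Cells were picked by hand from the dissected implantation site once extra-embryonic cells had been taken off, so the numbers of cells per family are not those of the embryo.

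The 1453 cells carried 3376 to 483669 counts each (median 61090.0), and an embryo gave 22 to 88 cells and 2540816 to 11857191 counts. The authors' 12 cell annotations were merged into 7 families: epiblast (EPI), which forms the embryo proper, gastrulating cells (Gast), amnion (AM), primordial germ cells (PGC), endoderm of the visceral or yolk sac kind (VE/YE), mesenchyme outside the embryo (EXMC) and trophoblast (TE). Of the marker genes listed for each family, those highest in their own family were 1 of 6 for Gast, 5 of 7 for AM, 5 of 5 for PGC, 8 of 8 for VE/YE, 5 of 6 for EXMC, 6 of 6 for TE and 3 of 6 for EPI. Gast and EPI are thus poorly set apart by these lists, and the names are the authors'. Levels are CPM, the counts of a gene scaled to a common total, of the summed cells of 1 family in 1 embryo, where it held at least 5. This gave 6 sums of Gast, 6 of AM, 3 of PGC, 9 of VE/YE, 19 of EXMC, 16 of TE and 14 of EPI. In such sums, fewer cells with a transcript and less transcript per cell cannot be told apart.

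Each of the 5 genes had its highest level in 1 or a few families. CCR7 had 12567 counts in all, 98.0% of them in TE cells, and CXCR4 had 3344 counts, 62.9% of them in VE/YE cells. CXCL12 had 8394 counts, with 44.8% in EPI and 28.9% in AM cells. CCL20 had 1931 counts with 62.8% in EPI cells, and CCL2 had 2080 counts with 91.4% in EXMC cells. Counts of CCL2 came from very few cells: 86 cells had any, 1 cell held 37.6% of all counts, and 2 cells held 50%. Of CXCL12, by comparison, 68 cells were needed to reach 50% of the counts.

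**Figure D1:**
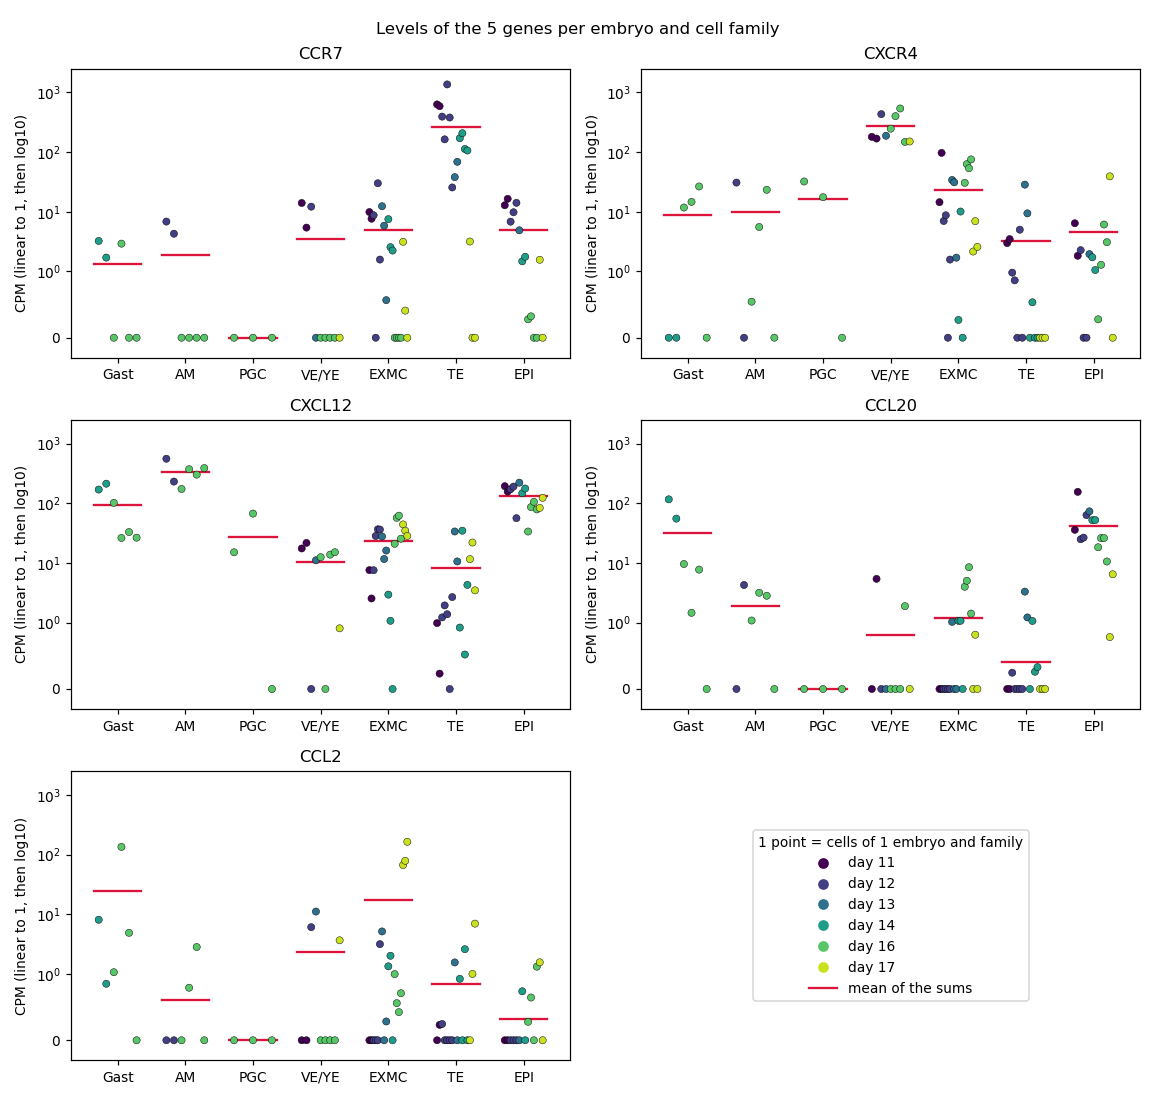
CPM of CCR7, CXCR4, CXCL12, CCL20 and CCL2 in each sum of 1 embryo and 1 family (1 point, coloured by labelled day), with the mean of the sums as a red line; the axis is linear up to 1 CPM and logarithmic above. The 9 VE/YE sums of CXCR4 all lie above every sum of the other families, and 12 of the 16 TE sums of CCR7 do.

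CXCL12, the ligand of CXCR4, was highest in amnion. Its level was 557 and 231 CPM in the AM sums of day 12 and 174, 372, 302 and 389 CPM in those of day 16, against a lowest, median and highest of 33.6, 135 and 221 CPM in the 14 EPI sums. Of the AM sums, 5 of 6 lay above the highest sum of any other family, 221 CPM in EPI of day 13 replicate 2. Within the same embryos CXCL12 was higher in AM than in EPI in 6 of 6 embryos, with a log2 difference of 1.61 ± 0.63 (standard error, as for all log2 values here), and 0.99 ± 0.81 with sums of at least 10 cells. Over sums the means were 337 ± 135 CPM in AM and 130 ± 57.6 CPM in EPI (SD, n = 6 and 14).

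The amnion annotations did not share 1 level of CXCL12. Using sums of at least 3 cells, E-AM of the earlier days had 401 ± 222 CPM (SD, n = 5), L-AM1 161 ± 70.8 CPM (n = 3) and L-AM2 439 ± 185 CPM (n = 4). The spread of these few sums is wide: L-AM1 ran from 102 to 239 CPM and L-AM2 from 279 to 705 CPM, without overlap, while E-AM ran from 162 to 693 CPM across both. Of the 7 amnion markers, ISL1, a transcription factor of amnion and heart progenitors, was at 149 CPM in the 51 AM cells with a CXCL12 count after thinning and 41.4 CPM in the 27 without, HEY1 at 157 and 86.3 CPM, and GATA3 at 169 and 105 CPM. GABRP was at 182 CPM in cells with and 247 CPM in cells without, VTCN1 at 248 and 297 CPM, TFAP2A at 197 and 194 CPM and WNT6 at 28.9 and 25.1 CPM. The median depth was 65023.0 counts in cells with and 48212.0 in cells without. These cells were pooled over embryos and days, so the values carry no test.

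Gastrulating cells held CXCL12 near the epiblast level at day 14 and mostly below it at day 16. The Gast sums were 170 and 213 CPM at day 14 and 101, 26.3, 33.0 and 26.6 CPM at day 16, where replicate 1 stood apart as the high one. At day 16 the annotation L-Gast1 had 104 CPM over 14 cells and L-Gast2 23.8 CPM over 33 cells. Gast differed from EPI of the same embryos by a log2 difference of -0.81 ± 0.70, with 3 of 6 embryos higher in Gast.

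Germ cells, endoderm, mesenchyme and trophoblast had little CXCL12. Means were 27.4 ± 35.2 CPM in PGC (SD, n = 3), 10.3 ± 8.08 CPM in VE/YE (n = 9), 23.8 ± 18.5 CPM in EXMC (n = 19) and 8.14 ± 11.7 CPM in TE (n = 16). The log2 differences from EPI were -2.20 ± 1.02 for PGC, -3.23 ± 0.68 for VE/YE, -2.21 ± 0.50 for EXMC and -4.41 ± 0.61 for TE, and no embryo had a higher level in any of these families than in its EPI. Without day 16 replicate 3 the PGC difference was -3.62. The EXMC difference depended on the days: it was -3.63 within days 11 to 14 and -0.86 within days 16 and 17, and for TE it was -5.17 and -2.37.

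CXCL12 was lower at later days in EPI and higher at later days in EXMC. In EPI the mean of day 11 was 175 ± 25.8 CPM (SD, n = 2), that of day 12 140 ± 72.8 (n = 3), the single sum of day 13 was 221, and days 14, 16 and 17 had means of 162 ± 20.9 (n = 2), 76.1 ± 30.4 (n = 4) and 104 ± 28.1 (n = 2), a change of -0.18 ± 0.07 log2 units per day. In EXMC days 11, 12 and 13 had means of 5.07 ± 3.57 (n = 2), 27.2 ± 13.6 (n = 4) and 18.5 ± 8.34 CPM (n = 3), and days 14, 16 and 17 of 1.34 ± 1.49 (n = 3), 41.4 ± 21.1 (n = 4) and 35.8 ± 7.95 CPM (n = 3), a change of 0.28 ± 0.14 per day. The 3 EXMC sums of day 14 (2.95, 1.07 and 0 CPM) lie below all 7 sums of days 16 and 17, so the EXMC course was not even. The 6 EPI markers were also higher in the later EXMC sums, with medians of 81.2, 105, 200, 82.7, 592 and 294 CPM at days 11, 12, 13, 14, 16 and 17, while the 7 AM markers had medians of 68.9 to 139 CPM with no rise. The part of these markers' cells in the CXCL12 level of EXMC was not tested.

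CCL20, the ligand of CCR6, was a gene of epiblast and early gastrulating cells, and its level in EPI was lower at later days. The EPI sums were 35.9 and 155 CPM at day 11, 25.0, 26.6 and 63.4 at day 12, 73.2 at day 13, 52.2 and 52.4 at day 14, 18.3, 26.1, 26.2 and 10.6 at day 16, and 0.783 and 6.47 at day 17. Both day 17 sums, under culture stage labels, lie below all others, and the sums of day 16 overlap only with those of day 12. Replicate 3 of day 17, which has a developmental stage label, held 3 EPI cells and so gave no sum. Day and label type can thus not be told apart in the day 17 sums of EPI. The change was -0.48 ± 0.13 log2 units per day, and -0.65 ± 0.20 without the day 16 embryos.

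Gastrulating cells showed the same contrast between days. CCL20 had 116 and 55.4 CPM in the Gast sums of day 14 and 9.62, 1.46, 7.74 and 0 CPM in those of day 16, with no overlap. Against EPI of the same embryos the log2 difference was -1.62 ± 0.90 over all days, with 2 of 6 embryos higher in Gast, 0.09 within days 11 to 14, -2.43 within days 16 and 17, and -0.93 with sums of at least 10 cells. In all 83 Gast cells, 145 of the 220 CCL20 counts came from E-Gast, and L-Gast2 had 1 count in 35 cells.

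Other families had little or no CCL20 in their sums. The log2 differences from EPI were -4.16 ± 1.08 for AM, -5.42 ± 1.11 for VE/YE, -4.19 ± 0.70 for EXMC and -6.64 ± 0.86 for TE, and CCL20 was lower than in EPI in each of the 6, 7, 13 and 10 embryos compared. PGC had 0 counts in 18 cells of day 16, where EPI had 20.8 CPM. At 3 counts the PGC level would be 1.80 CPM, 11.5-fold below EPI, but this limit covers counting error only. Over all families, 14 cells held 50% of the CCL20 counts, so these few PGC cells cannot set a lower bound on the difference. The amnion has an exception outside these sums: 8 AM cells of day 14 held 406 CCL20 counts, of which 2 E-AM cells of replicate 4 held 207 and 194. With these cells the level over all AM cells was 50.1 CPM, whereas the AM sums averaged 1.89 ± 1.79 CPM (SD, n = 6).

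CCL2, the monocyte-attracting ligand of CCR2, appeared in extraembryonic mesenchyme of day 17. The EXMC sums of day 17 were 66.7, 78.5 and 163.5 CPM, against 0.998, 0.560, 0.424 and 0.709 CPM at day 16. Every EXMC sum of days 11 to 14 was at or below 5.15 CPM, so day 17 stands clear of all earlier days. The gene was too low in the other sums to pass the filter of the EXMC day fit, and over whole embryos its level changed by 1.45 ± 0.19 log2 units per day. Without day 17 replicate 3 that change was 1.23.

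Few EXMC cells made up the day 17 level. CCL2 was counted in 9 of 55 EXMC cells of replicate 1, 2 of 37 of replicate 2 and 26 of 64 of replicate 3. Without the cell with the most counts in each embryo, a setting added after the data were seen, the sums were 34.9, 37.9 and 69.9 CPM, which are still above those of day 16. The 37 cells with a count were deeper, with a median of 117058.0 counts against 47723.0 in the 119 without.

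The cells with CCL2 were looked at for markers of other cell types. The 10 macrophage and blood markers found summed to 18.0 CPM in the cells with a count and 24.1 CPM in those without, and 7 of the 10 were at 0 in the cells with a count. The 7 endothelial markers summed to 261 CPM in cells with and 229 CPM in cells without CCL2. The 6 EXMC markers, which include collagens, summed to 8922 CPM in cells with and 13802 CPM in cells without. The part of these differences in the CCL2 level was not tested.

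Outside mesenchyme, CCL2 stood out in 1 sum. Gast of day 16 replicate 2 had 134 CPM (92 counts in 8 cells), against 1.07, 4.89 and 0 CPM in the other Gast sums of that day, and 8.09 and 0.852 CPM at day 14. The log2 difference of Gast from EPI was 4.80 ± 1.19 with this embryo and 3.30 without it, and that of EXMC from EPI was 2.11 ± 1.19. EPI itself was at 0 in 9 of 14 sums and never above 1.57 CPM, so these folds rest on a few EPI counts.

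**Figure D2:**
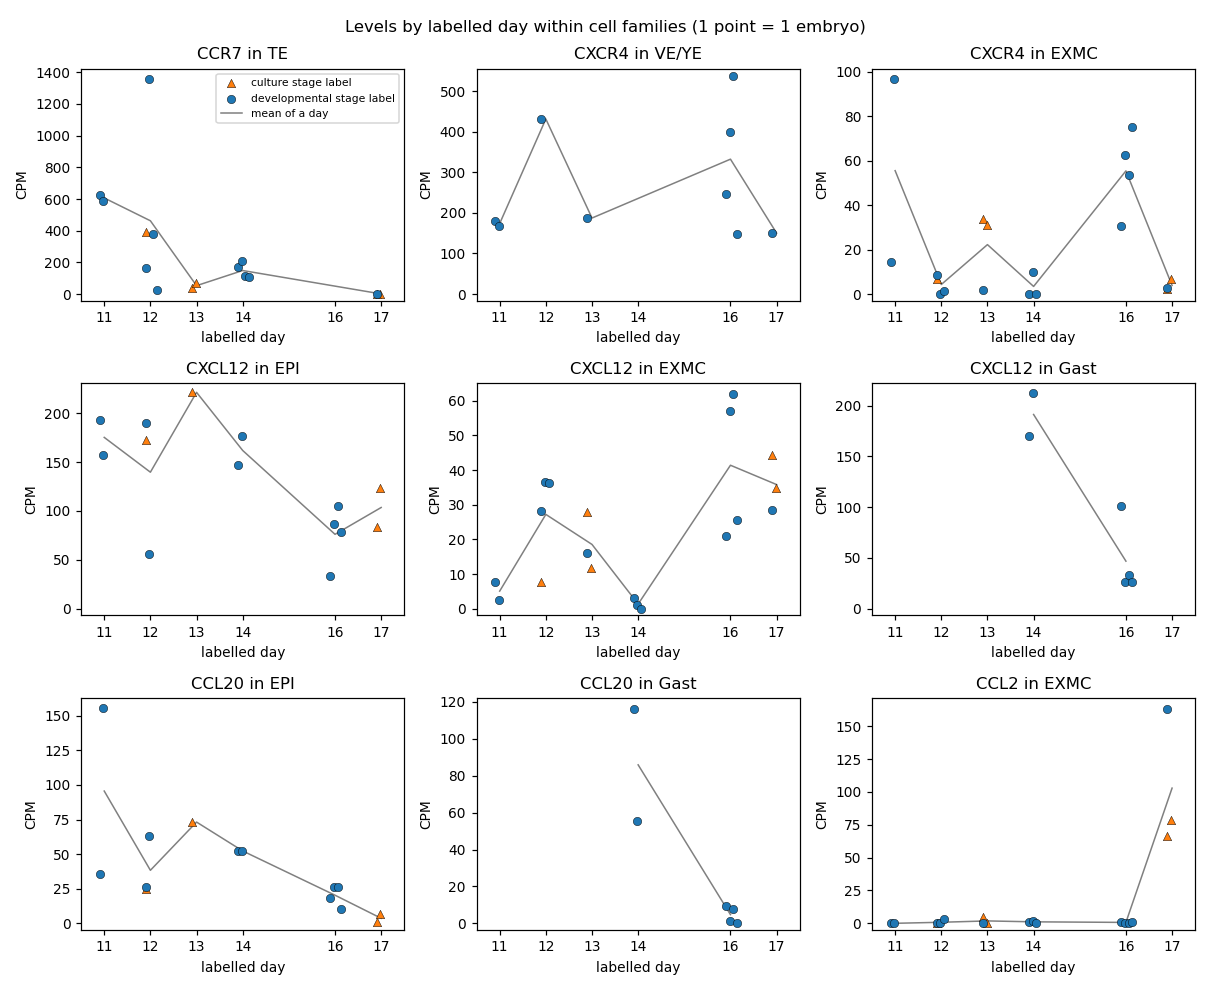
CPM by labelled day for 9 pairs of gene and family, 1 point per embryo (triangles for culture stage labels, circles for developmental stage labels), with the mean of each day joined by a grey line. CCR7 in TE and CCL20 in EPI and Gast are low at the latest days measured, CCL2 in EXMC is high only at day 17, and CXCR4 in EXMC has separate high days.

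CXCR4, the receptor of CXCL12, was the gene of the endoderm. Its VE/YE sums were 179 and 168 CPM at day 11, 431 at day 12, 187 at day 13, 246, 399, 536 and 148 at day 16 and 150 at day 17. Their lowest value, 148 CPM, lies above the highest sum of all other families, 96.6 CPM in EXMC of day 11 replicate 2. Against EPI of the same embryos the log2 difference was 6.49 ± 0.94, with VE/YE higher in 7 of 7 embryos, and the means over sums were 272 ± 145 CPM in VE/YE and 4.65 ± 10.1 CPM in EPI (SD, n = 9 and 14).

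No clear course with day was seen for CXCR4 in endoderm. The change in VE/YE was 0.11 ± 0.10 log2 units per day, and -0.09 without day 16. Over whole embryos it was -0.01 ± 0.13, and -0.25 without day 16. The whole-embryo sums of day 14 were the lowest, 0.928 to 8.13 CPM, against 31.1 to 50.3 CPM at day 16, and only 4 VE/YE cells had been picked at day 14.

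Extraembryonic mesenchyme had CXCR4 on some days and almost none on others. The EXMC sums were 14.4 and 96.6 CPM at day 11, 6.98, 8.71, 0 and 1.58 at day 12, 34.0, 31.1 and 1.70 at day 13, 0.268, 10.1 and 0 at day 14, 30.4, 62.7, 53.5 and 75.2 at day 16, and 2.15, 6.95 and 2.57 at day 17. All 4 sums of day 16 lie above all 6 sums of days 14 and 17. At day 11, 1 cell held 62 of the 95 counts, whereas at day 16 the 405 counts came from 33 of 86 cells. EXMC differed from EPI by a log2 difference of 2.84 ± 0.78, higher in 10 of 13 embryos. Endoderm markers moved with CXCR4 in these sums: the 8 VE/YE markers summed to 199 to 542 CPM in EXMC of day 11, 11.6 to 140 at day 12, 21.4 to 375 at day 13, 17.3 to 46.9 at day 14, 95.8 to 1851 at day 16 and 8.18 to 61.1 at day 17. At day 16 none of the 8 was at 0, and at day 14 APOB, AFP, FOXA2, SERPINA1 and FOXA1 were. CXCR4 in EXMC stood at 7.61, 2.46 and 8.08% of its VE/YE level over days 11 to 12, 13 to 14 and 16 to 17. Of the endoderm markers counted in VE/YE then, the highest stood at 5.20, 0.414 and 4.16%. The median one stood at 0.788, 0.153 and 2.88%. The part of these markers' cells in the CXCR4 level of EXMC was not tested. The change with day, 0.07 ± 0.22, carried no direction: it was -0.54 without day 16 and 0.39 without day 11 replicate 2.

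Primordial germ cells, which follow CXCL12 through CXCR4 in mice, had low CXCR4 counts here. The 3 PGC sums, all of day 16, were 32.1, 17.5 and 0 CPM, from 3 of 18 cells with a count. EPI of the same day had 0.278 to 6.10 CPM, so 2 PGC sums lie above and 1 below all EPI sums of that day. The log2 difference from EPI was 1.57 ± 1.20, or 0.32 without day 16 replicate 2. In EPI, 1 sum stood apart, with 39.1 CPM (50 counts) in day 17 replicate 1.

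Within VE/YE, cells with CXCR4 differed from those without in the genes beside it. After thinning each cell to 10000 counts, 61 of 87 VE/YE cells had a count (70.1%, exact 95% interval 59.4 to 79.5), and in the full counts of those cells LGR5, a receptor of R-spondins, was at 462 CPM against 82.4 CPM in the 26 without. CER1, a secreted inhibitor of Nodal, BMP and Wnt signals, was at 306 CPM in cells with and 25.0 CPM in cells without, and the transcription factor LHX1 at 117 and 21.7 CPM. Of the 8 endoderm markers, TTR was at 759 CPM in cells with and 3528 CPM in cells without, APOB at 32.4 and 304 CPM, AFP at 47.0 and 227 CPM and HNF4A at 42.7 and 117 CPM. APOA1 was at 10039 and 11533 CPM, FOXA2 at 79.4 and 56.1 CPM, FOXA1 at 76.3 and 50.0 CPM and SERPINA1 at 5.34 and 0 CPM, and F2 was at 175 and 200.0 CPM. LGR5, LHX1, CER1 and F2 had been chosen for a pattern like that of CXCR4. The median depth was 63072.0 counts in cells with and 52178.5 in cells without, and cells of 1 embryo are not independent, so these values carry no test.

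CCR7, the receptor of CCL19 and CCL21, was a gene of early trophoblast. Its TE sums were 627 and 586 CPM at day 11, 392, 163, 1356, 378 and 25.5 CPM in replicates 1 to 5 of day 12, 38.0 and 68.5 at day 13, 170, 207, 112 and 106 at day 14, and 3.16, 0 and 0 at day 17. No day 16 embryo had 5 TE cells. The 3 sums of day 17 lie below all 13 earlier ones, and those of day 13, both under culture stage labels, lie below those of days 11 and 14. Replicate 3 of day 12, the highest, held 6 TE cells, and its 2 richest cells carried 1060 and 881 counts.

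Compared with EPI of the same embryos, CCR7 in TE was 5.35 ± 0.49 log2 units higher, in 9 of 10 embryos, and the remaining one had no count in either. The mean over sums was 265 ± 354 CPM in TE and 5.02 ± 5.92 CPM in EPI (SD, n = 16 and 14). In TE the change was -1.22 ± 0.25 log2 units per day, and -0.96 with developmental stage labels alone. With sums of at least 10 cells, which leave out day 12 replicate 3 and 2 of the 3 day 17 embryos, it was -0.84.

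The summed trophoblast markers were also lowest at day 17. The 6 TE markers summed to 17145 and 18989 CPM at day 11, 7048 to 14255 at day 12, 8286 and 10109 at day 13, 8024 to 18212 at day 14 and 1257 to 1493 CPM at day 17. The day 17 cells annotated as TE thus had a small part of the earlier sum. The hormone gene CGA made up most of that sum. In TE cells of days 11 to 14 with a thinned CCR7 count it was at 17883 CPM, and the other markers at 192 to 897 CPM. In those without, it was at 6929 CPM, and the other markers at 182 to 514 CPM. The single markers are not given for day 17, so the lower sum does not show that each of them was lower. Its part in the CCR7 level was not tested.

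Low CCR7 levels in EPI and EXMC were also lower at later days. In EPI days 11 and 12 had means of 14.6 ± 2.56 (SD, n = 2) and 10.2 ± 3.66 CPM (n = 3), the single sum of day 13 was 4.88 CPM, and days 14, 16 and 17 had means of 1.62 ± 0.200 (n = 2), 0.15 ± 0.174 (n = 4) and 0.783 ± 1.11 CPM (n = 2), a change of -1.02 ± 0.19 per day, and in EXMC the change was -0.69 ± 0.21. Without day 17 replicate 1, which had 16 of the 17 EXMC counts of that day, the EXMC change was -1.09. These levels were small beside trophoblast: over days 11 to 14, CCR7 in the other 5 families with cells then stood at 0.556 to 3.99% of its TE level, where the median TE marker stood at 4.87 to 13.7%. The part of RNA from trophoblast cells in these levels was not tested.

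Trophoblast cells with CCR7 differed from those without in part of the trophoblast markers. Of the TE cells of days 11 to 14, 113 of 329 had a CCR7 count after thinning (34.3%, exact 95% interval 29.2 to 39.8). CGA, the alpha subunit of chorionic gonadotropin, was at 17883 CPM in the 113 cells and 6929 CPM in the 216 others, PGF, a placental growth factor, at 633 and 252 CPM, and the transcription factors GATA2 at 897 and 514 CPM, GCM1 at 512 and 334 CPM and GATA3 at 454 and 416 CPM. KRT23, a keratin, at 1179 CPM in cells with and 134 CPM in cells without CCR7, and NPPA, the natriuretic peptide precursor, at 2081 and 877 CPM, had been chosen for a pattern like that of CCR7. ACKR2, another chemokine-binding receptor, was at 53.3 CPM in cells with CCR7 and 60.6 CPM in cells without, and KRT7, a general trophoblast keratin, at 192 and 182 CPM. Median depth was 90415.0 counts in cells with and 76909.0 in cells without. Cells were pooled over embryos and days, and the share with CCR7 differed between embryos. It was 57.1% in day 11 replicate 1, 10.7% in day 13 replicate 2 and 0% in day 12 replicate 5. Cells with and without CCR7 thus also differ in embryo and day, and these values carry no test.

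**Figure D3:**
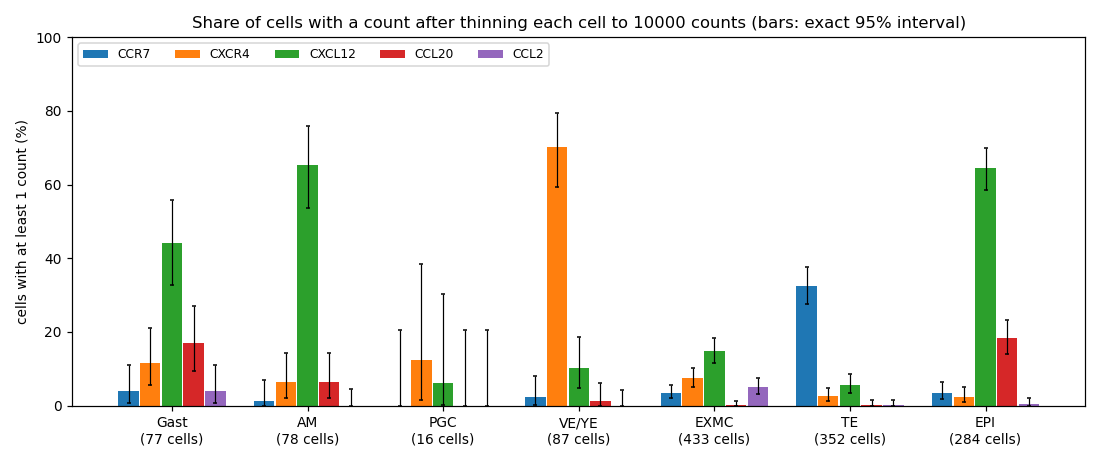
Share of cells with at least 1 count of each gene after every cell was thinned to 10000 counts, by family, with exact 95% binomial intervals that cover counting error only; cells with fewer counts were left out. CXCR4 is in 70.1% of VE/YE cells, CXCL12 in 65.4% of AM and 64.4% of EPI cells, CCR7 in 32.4% of TE cells, and the other bars are at or below 44.2%.

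Shares of cells with a count were compared at 1 depth. Cells of unequal depth were thinned to 10000 counts, which left out 126 cells with fewer counts. CXCL12 was then counted in 65.4% of 78 AM cells (81.7% unthinned) and 64.4% of 284 EPI cells (85.9% unthinned), and in 5.68% of 352 TE cells (17.1% unthinned). Within embryos the AM share was above the EPI share in 5 of 6: 83.3% in AM against 63.6% in EPI and 83.3% against 81.8% at day 12, and 63.6% against 38.5%, 81.8% against 53.6%, 70.0% against 34.8% and 37.5% against 40.0% at day 16. CXCL12 in EPI cells had a share of 80.3% at days 11 to 14 and 44.9% at days 16 and 17. CCR7 was counted in 32.4% of TE cells (56.6% unthinned) and 0 to 3.90% of cells in the other families over all days. By embryo it was in 57.1% and 55.0% of TE cells of day 11 and also in 44.4% and 28.6% of the 9 and 7 EPI cells of those embryos, and in 66.7% of 6 EXMC cells of day 12 replicate 3. CXCR4 was counted in 70.1% of VE/YE cells (80.2% unthinned) and 2.46 to 12.5% elsewhere, and CCL20 in 18.3% of EPI cells (47.4% unthinned). CCL2 was counted in 22 of 433 EXMC cells (5.08%, 10.1% unthinned). It was counted in 0 of 78 AM cells, where 3 cells would be a share of 3.85% (2 of 82 cells, 2.44%, unthinned).

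**Figure D4:**
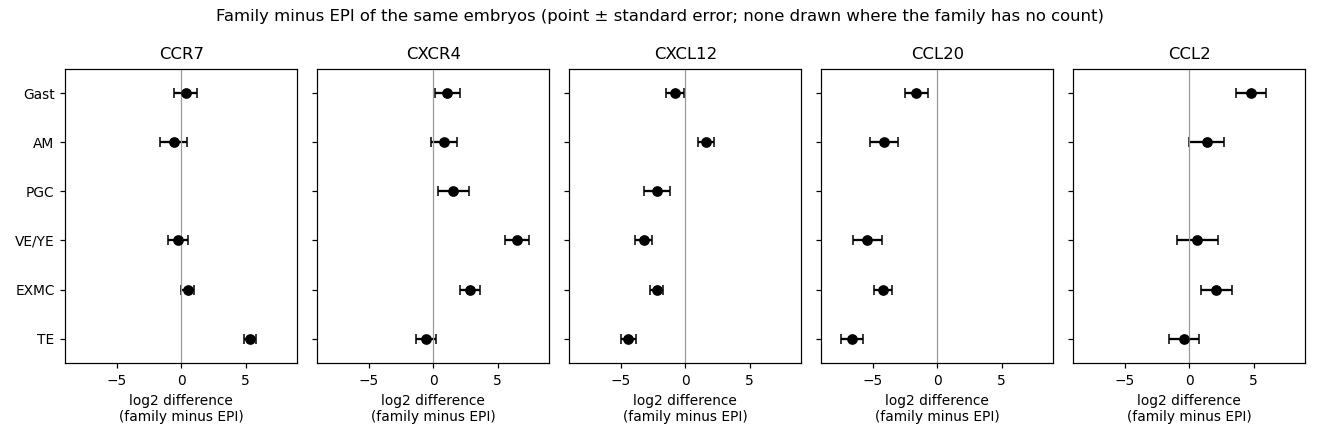
Log2 difference of each family from EPI of the same embryos, with its standard error, for the 5 genes; no point is drawn where the family had no count. CXCL12 is above 0 only in AM, CCL20 is below 0 in all families drawn, CXCR4 is highest in VE/YE and CCR7 in TE.

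Receptors that could read these ligands were counted unevenly. CCR6, the receptor of CCL20, had 6 counts in 6 of 1453 cells, and CCR2, the main receptor of CCL2, had 10 counts in 5 cells, 9 of them in TE. CCR4, another CC chemokine receptor, had 96 counts. CCL19 and CCL21, the ligands of CCR7, had 5 and 20 counts, each in 1 EXMC cell. At this depth so few counts do not show that these genes are absent.

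The CXCL12 axis was the one with both sides counted in many cells. CXCL12 was highest in AM (291 CPM over all AM cells) and CXCR4 in VE/YE (258 CPM), where CXCL12 was at 11.6 CPM. ACKR3, which takes up CXCL12, was also highest in VE/YE over all cells, at 49.7 CPM, with 23.8 CPM in TE and 3.72 CPM in EPI. By sums the families overlapped. The lowest, median and highest were 1.89, 22.8 and 194 CPM in VE/YE and 13.0, 19.6 and 56.9 CPM in TE. The highest VE/YE value was the single sum of day 13. At day 16 the means were 14.1 ± 13.8 CPM in VE/YE and 20.4 ± 14.8 CPM in EXMC (SD, n = 4 each). In the same fit ACKR3 was higher than in EPI in VE/YE (log2 3.51 ± 0.76, edgeR adjusted p = 0.000271), in EXMC (2.14 ± 0.62, edgeR adjusted p = 0.00522) and in TE (2.72 ± 0.63, edgeR adjusted p = 0.000363). The VE/YE call was lost with sums of at least 10 cells (2.93) and within days 16 and 17 (1.89). Of 87 thinned VE/YE cells, 13 had both CXCR4 and ACKR3, against 11.9 if the genes were independent. In the full counts of the same cells, pooled over embryos and days, ACKR3 was at 67.4 CPM in the 61 with CXCR4 and 8.20 CPM in the 26 without. The part of single embryos in this difference was not tested.

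**Figure D5:**
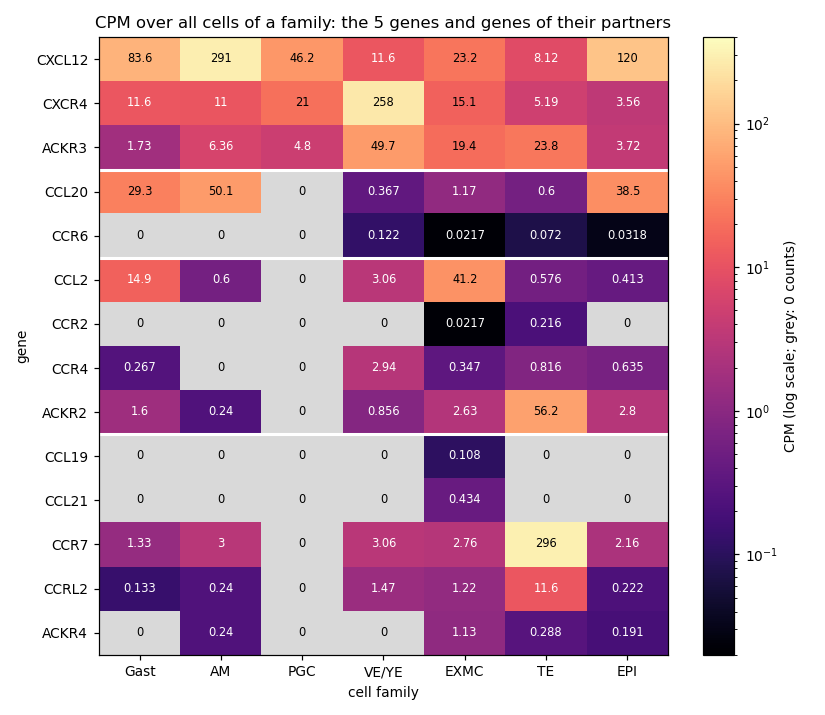
CPM over all cells of a family (colour, log scale, with the value written in each cell; grey for 0 counts) for the 5 genes and the genes of their partners, in blocks for CXCL12, CCL20, CCL2 and CCR7. CCR6, CCR2, CCL19 and CCL21 are at or near 0 in all families, while ACKR3 and ACKR2 reach 49.7 and 56.2 CPM.

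Wider lists placed the 5 genes among 90 genes of chemokine ligands (32 found of 40), receptors (21 of 23), handling of the signal (18 of 18, such as arrestins and the peptidase DPP4) and the NF-kB response (19 of 19, the inflammatory programme that drives many chemokines). A gene was called at an adjusted p under 0.05 over all genes tested by edgeR. All 6 family comparisons share the EPI sums, so they are not independent of each other, and 45 of the 90 genes passed the filter on low counts in them. Chemokine families hold close copies (CCL3 and CCL4, CCL15 and CCL23), between which reads may be split.

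Trophoblast had the most list genes that differed from epiblast. In TE, 22 of 45 rose and 4 fell, which is 57.8%, against 41.9% of all genes tested. Of 21 receptors found, 7 passed the filter on low counts, some mainly through their TE level, and all 7 of these were called higher in TE, which says nothing of the receptors as a group: ACKR2 (5.64 ± 0.66), CCR1 (5.51 ± 0.92), CCR3 (5.38 ± 0.92), CCRL2 (4.95 ± 1.16), CMKLR1 (3.88 ± 0.64), ACKR3 and CXCR2. ACKR2, a decoy that degrades inflammatory CC chemokines, had an edgeR adjusted p of 1.93e-10, and was counted in TE sums at a lowest, median and highest of 2.00, 55.6 and 181 CPM, against 0, 0.488 and 5.48 CPM in EPI sums. Of the NF-kB list 8 of 14 rose and 0 fell, led by the cytokine gene IL1B (6.56 ± 0.75, edgeR adjusted p = 9.52e-11). Of all 16253 genes tested, 3341 rose and 3461 fell. Some NF-kB genes also passed the filter mainly through their TE level, such as PTGS2, at 17.1 CPM over all TE cells and at most 0.998 CPM in another family. The count therefore says nothing of that list as a group. CCRL2 averaged 26.9 CPM in TE sums and 0.227 CPM in EPI sums, where 11 of 14 were at 0.

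Mesenchyme and endoderm had fewer calls than trophoblast, and they shared some with it and with each other. In EXMC 14 of 45 rose and 4 fell, 40.0% against 30.7% of all genes. The ligand CCL23, at 159 CPM over all EXMC cells and 0.508 CPM over all EPI cells, was higher by 6.06 ± 0.65 (edgeR adjusted p = 3.73e-11), and it was also called in VE/YE (3.78 ± 0.96) and TE (1.94 ± 0.71). CXCL14, a ligand of epithelia, was higher by 5.08 ± 0.84, but by 1.57 and uncalled within days 11 to 14. In VE/YE 13 rose and 8 fell, 46.7% against 26.4% of all genes, and the count was 13 without day 11 replicate 2. IL1B (7.41 ± 0.80, edgeR adjusted p = 7.22e-11) and DPP4 (5.66 ± 0.86, edgeR adjusted p = 9.34e-07), a peptidase that trims CXCL12, led the rises. IL1B was also called higher in EXMC and TE, and DPP4 in AM, PGC and EXMC.

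Amnion, germ cells and gastrulating cells, with 6, 3 and 6 sums against 16 of TE and 19 of EXMC, had few such calls. All genes also had fewer calls there, so the number of calls does not rank the families. In AM 4 of 45 rose and 1 fell, 11.1% against 6.22% of all genes, and the count was 3 without day 12 replicate 1 and 3 without day 12 replicate 2. CXCL14 rose in AM by 4.42 ± 0.93 (edgeR adjusted p = 0.00197), with 490 CPM over all AM cells and 13.5 CPM over all EPI cells, but within days 11 to 14 its difference was -4.37 ± 4.68. In PGC 2 rose (NFKBIA and DPP4) and RELB, with 0 counts in PGC and 18.4 CPM in EPI, was called lower, 6.67% against 4.41% of all genes. All 3 calls were lost without day 16 replicate 4, and that of RELB also without replicate 2 or 3. In Gast 1 of 45 genes, the growth factor CSF1 (3.61 ± 0.88, edgeR adjusted p = 0.0133), rose, 2.22% against 1.84% of all genes, and this call was lost without day 16 replicate 2, 3 or 4. With size factors of DESeq2 in place of TMM the median of all genes moved from -0.49 to -0.34 in PGC and from -0.24 to -0.09 in VE/YE, and the share of higher among all PGC calls from 37.6% to 54.6%.

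Changes with day were tested for the same lists. Over whole embryos 4 of 45 list genes rose and 7 fell, 24.4% against 21.9% of all genes. The ligand CXCL14 rose by 1.13 ± 0.22 per day (edgeR adjusted p = 0.00104), and the trophoblast genes ACKR2 (-0.72 ± 0.14, edgeR adjusted p = 0.000919) and CCL27 (-0.68 ± 0.13, edgeR adjusted p = 0.0011) fell. TE cells in the sums numbered 90, 128, 75, 62 and 21 at days 11, 12, 13, 14 and 17, with no TE sum at day 16. Within TE, ACKR2 averaged 73.0, 79.8, 21.3, 64.4 and 51.2 CPM at those days and was not called. The part of TE cell numbers in the whole-embryo changes was not tested. In EPI none of 19 was called by edgeR, against 3.81% of all genes, with 5 at an unadjusted p under 0.05 and 1 called by DESeq2. In VE/YE 1 of 14 was called, MIF (0.52 ± 0.10 per day), 7.14% against 0.145% of all genes, and its call was lost when any 1 of the 9 embryos other than day 17 replicate 3 was left out. Without that embryo 2 list genes were called. Without day 16 the change of MIF was 0.15 ± 0.09 per day.

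Within mesenchyme and trophoblast the list genes that moved mostly rose. Of all genes called, 790 rose and 513 fell in EXMC, and 985 rose and 828 fell in TE. The 5 list genes called in EXMC are too few to set their direction apart from that of all genes. In EXMC 4 of 28 rose and 1 fell, 17.9% against 11.8% of all genes, with CXCL14 at 1.40 ± 0.27 per day (edgeR adjusted p = 0.00324), and this call was lost without day 16. In TE 9 of 37 rose and 0 fell, 24.3% against 14.9% of all genes. The 6 EXMC markers in these TE sums summed to 86.0 and 87.0 CPM at day 11 and 546 to 1590 CPM at day 17, where the summed TE markers were lowest. The part of mesenchyme in these rises was not tested. Among them were the receptors CCRL2 (1.35 ± 0.18 per day, edgeR adjusted p = 0.000294) and CCR1 (1.25 ± 0.31, edgeR adjusted p = 0.0148) and the NF-kB genes ICAM1 (1.05 ± 0.15, edgeR adjusted p = 0.000255) and IL1B (0.88 ± 0.19, edgeR adjusted p = 0.00618). With developmental stage labels alone, which leave 1 embryo of day 17, none of the 9 was called, while the changes of ICAM1 (1.03), CCRL2 (1.02), IL1B (0.80) and CCR1 (1.83) kept their direction, and 4 were called without day 17 replicate 1.

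The split by label type was the comparison that had not chosen the 5 genes. With day as a factor, culture stage embryos were set against developmental stage embryos, and days 12, 13 and 17 hold both. Of all genes 0.0101% were called by edgeR. Of the 5 genes edgeR called 0, with 0 at an unadjusted p under 0.05. DESeq2 tested 4 of them, without CCL2, and called 1, CCR7. Of 59 list genes edgeR called 0, with 5 at an unadjusted p under 0.05, and DESeq2 called 2. The share of all genes called by DESeq2 is not given here, so its calls have no background to be set against.

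CCR7 came closest in that split. Whole-embryo levels at day 12 were 240 CPM with the culture label, against 123, 660, 217 and 7.87 CPM with the developmental label. At day 13 they were 30.2 and 40.5 CPM in culture stage embryos and 0.577 CPM in the developmental stage embryo, and at day 17 they were 2.97 and 3.40 CPM in culture stage embryos and 0 CPM in the developmental stage embryo. At days 13 and 17 the culture stage embryos are thus higher and at day 12 they lie inside the range of the others. The log2 difference was 2.95 ± 1.48 (edgeR adjusted p = 0.653) and was 5.97 without day 12 replicate 1 and 1.18 without day 13 replicate 3, while DESeq2 gave 4.45 ± 1.07 (adjusted p = 0.00661). TE cells were in 2 of the 3 day 13 embryos in numbers of at least 5, those with culture labels, whereas at day 12 the highest level was in replicate 3 with 6 TE cells and replicate 2 had 53. The part of TE cell numbers was not tested.

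The other 4 genes had wide intervals in the label split. The log2 difference was 0.01 ± 0.75 for CXCL12 (edgeR adjusted p = 1.0), -0.10 ± 1.66 for CCL20 (edgeR adjusted p = 0.994), -1.28 ± 1.10 for CCL2 (edgeR adjusted p = 0.844) and -0.71 ± 0.53 for CXCR4 (edgeR adjusted p = 0.819). In simulated counts of the same layout 10% of genes changed by 2 log2 units were recovered, so only large differences could have been called.

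Genes whose pattern was most like each of the 5 were looked for over the 73 sums by the correlation of log2(CPM + 1). The sums share embryos, depth and the annotation, so the correlations carry no test. CCR7 was followed most closely by KRT23 (r = 0.93), NPPA and LHB (0.90 each), PHOSPHO1, a phosphatase of bone mineralisation, and LOC102137969 (0.89 each). LHB lies among near-identical gonadotropin beta genes and its counts may be shared with them. CXCR4 was followed by LGR5 (0.77), F2, which encodes prothrombin (0.74), LHX1 (0.74), the serotonin receptor gene HTR1E (0.73) and CER1 (0.73).

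The ligands had looser followers. CXCL12 was followed by ZNF208 (0.79), the amino acid transporter gene SLC7A3 (0.77), RRAGD (0.76), CRMP1 (0.76) and BCL11A (0.75). Of these only SLC7A3 had its highest mean in AM, 399 CPM against 110 CPM in EPI, and the other 4 were highest in EPI. CCL20 was followed by PDZD4 and CREB3L3 (0.81 each), HNF4G, the DNA methyltransferase gene DNMT3B (0.80 each) and PEBP1 (0.79), all with their highest mean in EPI. For CCL2 the closest were MYL7, an atrial myosin light chain (0.58), PCOLCE, A2M, DKK1 and PDLIM4 (0.47 to 0.49), so no gene followed it well. Between the 5 genes themselves the closest pair was CCL20 and CXCL12 (0.62), and CXCL12 and CXCR4 had an r of -0.12.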

How the data were processed

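Single cells were sequenced from the 3′ end, and the authors deposited counts per gene and cell, from reads aligned with STAR per the submitters' processing notes. No source used here gives the genome build, the counting tool or the use of strand, or says whether the counts are reads or molecules. Of 16890 genes named by locus, 3273 took a symbol from a RefSeq table (assembly T2T-MFA8v1.1). Cells were added up by embryo, and by family within an embryo where 5 or more were present, and sums were scaled to CPM. Gene tests used edgeR 4.0.16 (quasi-likelihood, TMM, filterByExpr, Benjamini-Hochberg at 0.05) in R 4.3.3: day as a slope, each family against EPI with the embryo as a block over 73 sums and 16253 genes, and label type with day as a factor. Each sample was taken as 1 separate embryo, and parentage was not part of the fits. DESeq2 1.42.0, other filters and scalings, at least 10 cells, subsets of days or labels, and leaving out each embryo were alternatives. The fits were tested on simulated data. Doublets were not called, since cells were picked by hand. The members and lists were chosen with earlier results of these data known. The rule for named genes took the 5 members, per comparison up to 8 called list genes with the smallest adjusted p, and 5 genes of closest pattern per member (mean of at least 10 CPM). Other genes were named after their values were seen. Intervals cover counting error only, and would be too narrow if the counts are amplified reads, which are not independent molecules. DESeq2 fits that did not converge were given no value.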

Additional observations from a re-analysis of the deposited data

Results flagged for a closer look

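In groups of 4 to 10 embryos of the same day and family, or of whole embryos of a day, 1 embryo lay far from the others in 13 of 50 groups. The rule set the gap to the nearest embryo against the range of the group. Where all others were at 0, 1 count was enough to be flagged, and whole embryos hold the family sums. The number of flagged groups can therefore not be set against chance. CCL2 in Gast of day 16 replicate 2 was 134 CPM (others 0 to 4.89, 92 counts), and in that whole embryo it was 12.6 CPM (others 0.397 to 1.61). CCR7 in TE of day 12 replicate 3 was 1356 CPM (others 25.5 to 392) from 6 cells. CXCL12 in Gast of day 16 replicate 1 was 101 CPM (others 26.3 to 33.0), and in TE of day 14 replicate 2 it was 34.7 CPM (others 0.520 to 4.29). CXCR4 in TE of day 12 replicate 4 was 4.99 CPM from 8 counts.

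The other flagged values rest on 1 or 2 counts each. CCL2 was 3.16 CPM in EXMC and 0.787 CPM in the whole embryo of day 12 replicate 5, and 0.245 CPM in TE of day 12 replicate 1. CCL20 was 0.245 CPM in that TE sum and 1.89 CPM in VE/YE of day 16 replicate 4. CCR7 was 2.92 CPM in Gast of day 16 replicate 2, and CXCR4 was 0.534 CPM in TE of day 14 replicate 2.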

How the results depend on the processing

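CCL2 rests on few cells, and PGC on 3 sums. List genes called without the filter on low counts were 21 for day in whole embryos (11 in the reported fit), 6 in EPI (0), 12 in EXMC (5), 3 in VE/YE (1) and 3 in Gast against EPI (1). DESeq2 called 1 for day in EPI, 2 for day in VE/YE, 5 in PGC (3) and 2 by label, with 1 of the 4 members it tested. Developmental labels alone gave 3 for day in EPI and 0 in TE (9), and label as a covariate gave 2 in EPI. Without day 16, EXMC had 2. With at least 10 cells there were 2 for day in EXMC, 0 in Gast, 2 in AM (5) and 7 in VE/YE (21). Without the embryo block there were 8 in AM and 5 in PGC. Days 11 to 14 alone gave 0 in Gast, 2 in AM and 13 in VE/YE, and days 16 and 17 alone 1 in AM, 4 in VE/YE, 9 in EXMC (18) and 7 in TE (26). CCL20 changed by -0.65 per day in EPI without day 16. CCR7 in TE changed by -0.96 per day with developmental labels alone and -0.84 with at least 10 cells, and differed from EPI by 6.29 without the block. CXCR4 in VE/YE differed by 5.49 with at least 10 cells. Directions reversed for CXCL14 in AM at days 11 to 14 (-4.37) and, by label, for CCL20 with DESeq2 (0.084) and CXCL12 with the size factors of DESeq2 (-0.0231) or its test (-0.0234). Causes were not tested.

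With 1 embryo left out, list genes called ranged from 10 to 13 for day in whole embryos, 0 to 1 in EPI, 3 to 5 in EXMC, 4 to 11 in TE and 0 to 2 in VE/YE, and against EPI from 0 to 1 in Gast, 3 to 6 in AM, 0 to 4 in PGC, 13 to 22 in VE/YE, 18 to 20 in EXMC and 22 to 29 in TE. By label they were 0 to 0, and so were the 5 genes. CCL20 in EPI ranged from -0.54 to -0.39 per day, CXCL12 in EXMC from 0.24 to 0.35 and CCR7 in TE from -1.29 to -1.06. Against EPI, CXCL12 in AM ranged from 1.42 to 1.80, CXCR4 in VE/YE from 5.99 to 7.01 and CCR7 in TE from 5.05 to 5.47. By label, CCL20 ranged from -1.32 to 1.11 and CXCL12 from -0.20 to 0.18. The 10-cell minimum was not run for day in VE/YE, which kept under 3 days.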
